A study of Homo sapiens with 10 samples.

Results

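The antiproliferative BTG and p53-linked stress genes were followed across the 4 RNA libraries of a study in which E proteins were added singly to leukemia cells. The 10 genes, BTG1, BTG2, BTG3, TOB1, TP53INP1, SESN2, GADD45A, GADD45B, ZMAT3 and FAS, were taken by name out of 50868 genes in the deposited table. Kasumi-1 is a human myeloblast line with the 8;21 translocation, which makes the AML1-ETO fusion protein. Cells were infected with retrovirus carrying HA-tagged E2-2 (from TCF4), E2A (from TCF3) or HEB (from TCF12), and control cells with the MIGR1 vector alone. After 4 days GFP-positive cells were sorted and their RNA was sequenced, giving 1 library each for E2-2, E2A, HEB and vector. All 4 groups thus share the virus, the sort and the line, and cells differ in the added factor. The HA ChIP-seq libraries were not analysed here.

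BTG and TOB proteins slow cell division and bring the CCR4-NOT deadenylase, which shortens poly(A) tails, to messenger RNAs. Sestrins restrain the growth kinase complex mTORC1, GADD45 proteins bind cell cycle and stress kinases, and FAS is a death receptor at the cell surface. Several of these genes are textbook targets of the transcription factor p53, and most also answer to other stress or growth signals. E proteins bind DNA at E-boxes, sites with the letters CANNTG.

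Library totals were 14816708 reads for E2-2, 17673090 for E2A, 16791922 for HEB and 15728974 for vector. The added factor was found in its own library, with TCF4 at 823 CPM in E2-2 against 0.256 CPM in vector, TCF3 at 1312 CPM in E2A against 252 CPM in vector and TCF12 at 836 CPM in HEB against 165 CPM in vector. CPM are reads scaled to a library of 1000000 after TMM scaling. All 8 Kasumi-1 markers examined, RUNX1T1, KIT and MPO among them, had reads in every library. CD33 of that list was called higher in all 3, at 4.08-fold in E2-2, 3.03-fold in E2A and 3.18-fold in HEB over vector, and CD34 had folds over vector of 0.655 in E2-2, 0.591 in E2A and 0.514 in HEB, none called. Their part in the values of the 10 genes was not tested. Of 16 markers of other cells, 3 to 5 were at 0 in a library and 15 stayed at or below 2.18 CPM, while EPCAM stood between 40.8 and 55.8 CPM. Summed, these markers came to 44.7 CPM in E2-2, 51.8 in E2A, 44.4 in HEB and 61.0 in vector, with HBA1 and HBB at 0 in all. There was 1 library per group, so nothing could be tested across samples, and differences between cultures lie outside every interval given here. Each interval is a 95% exact counting interval. A gene is called higher or lower in a pair of libraries when the fold reached 2, its interval left out 1 and the pair held 30 or more reads. RNA of a mixed culture cannot tell fewer cells with a transcript from less of it per cell. CPM and folds are compared between libraries, never between genes.

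Sequence upstream of 4 of the genes is shown. BTG2 and its closest relative BTG1 had folds over vector above 1 in all 3 E protein libraries, called for BTG2 alone, and SESN2 and GADD45B had folds below 1 in E2-2 and E2A, called for GADD45B in E2-2 alone. The sequences are those of RefSeq on GRCh38.p14, 5′ to 3′ on the strand of the gene, and each ends where the gene begins in RefSeq or in the deposited table, whichever comes first. E-boxes are in capitals. The BTG2 stretch is chr1:203305269-203305490 on the plus strand, BTG1 chr12:92145898-92146096 on the minus strand, SESN2 chr1:28259268-28259517 on the plus strand and GADD45B chr19:2475877-2476121 on the plus strand.
BTG2: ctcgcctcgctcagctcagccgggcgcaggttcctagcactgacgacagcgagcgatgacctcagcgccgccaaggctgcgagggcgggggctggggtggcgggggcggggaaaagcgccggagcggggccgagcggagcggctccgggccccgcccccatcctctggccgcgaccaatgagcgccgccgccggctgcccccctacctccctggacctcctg
BTG1: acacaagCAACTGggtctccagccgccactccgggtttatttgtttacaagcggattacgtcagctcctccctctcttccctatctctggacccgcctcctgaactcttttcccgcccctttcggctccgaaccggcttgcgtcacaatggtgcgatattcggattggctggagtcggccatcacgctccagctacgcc
SESN2: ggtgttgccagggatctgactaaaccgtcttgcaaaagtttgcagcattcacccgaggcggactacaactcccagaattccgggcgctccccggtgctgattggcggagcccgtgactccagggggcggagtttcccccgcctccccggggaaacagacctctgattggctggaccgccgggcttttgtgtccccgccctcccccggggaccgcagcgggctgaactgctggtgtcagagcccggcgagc
GADD45B: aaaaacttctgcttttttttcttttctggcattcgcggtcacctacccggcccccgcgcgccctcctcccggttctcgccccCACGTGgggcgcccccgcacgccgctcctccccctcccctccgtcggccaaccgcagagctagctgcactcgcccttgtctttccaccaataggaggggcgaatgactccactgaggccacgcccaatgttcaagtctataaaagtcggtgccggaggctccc

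The BTG2 and SESN2 stretches held no E-box, BTG1 held 1 (CAACTG) and GADD45B held 1 (CACGTG). In the full windows of 300 bases around RefSeq start sites, of which 12 belonged to 8 of the 10 genes, an E-box occurred for BTG1, FAS, GADD45B, TOB1 and ZMAT3. The motif reads the same on both strands, and 68.7% of all 35116 such windows held it. A gene was counted when any of its windows held the motif, while the shares given here are per window. Genes without a window, GADD45A among them, could not be scored. CAGGTG, read on either strand, a form that E proteins favour, occurred for FAS, TOB1 and ZMAT3 and in 20.6% of all windows. CAGCTG, the other favoured form, occurred for ZMAT3 and in 17.9% of all windows. Each of these forms is also an E-box and is counted in the first share too. A match describes letters only.

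BTG2 had the widest range of the 10 genes. It held 267 reads in E2-2, 78 in E2A, 51 in HEB and 22 in vector, which is 17.6, 4.41, 3.08 and 1.41 CPM. The gene (ENSG00000159388, chromosome 1, 203305491 to 203309602 in the deposited table) overlapped no other gene there. E2-2 stood far above the other libraries, vector lay lowest, and the intervals of E2A and HEB overlapped. The fold over vector was 12.5 (8.07 to 20.3) in E2-2, 3.13 (1.93 to 5.28) in E2A and 2.19 (1.30 to 3.78) in HEB, all called higher. The HEB call rests on 73 reads and was lost from the deposited FPKM values or when 100 reads per pair were asked for. Between E proteins, BTG2 was 3.99-fold (3.09 to 5.20) higher in E2-2 than in E2A and 5.71-fold (4.22 to 7.87) higher in E2-2 than in HEB. E2A over HEB was 1.43 (0.994 to 2.08) and not called. By fold in E2-2 over vector BTG2 ranked 218 from the highest of 13884 genes. Of 10630 genes with at least 100 reads in their highest library, 146 ranged more widely over the 4 libraries than BTG2.

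BTG1 (ENSG00000133639, chromosome 12, 92140278 to 92145897), first found at a translocation breakpoint of a B cell leukemia, followed the same order with smaller steps. It held 461 reads in E2-2, 423 in E2A, 343 in HEB and 240 in vector, or 30.4, 23.9, 20.7 and 15.4 CPM. All 3 E protein libraries lay above vector. Over vector the fold was 1.98 (1.69 to 2.32) in E2-2, 1.56 (1.32 to 1.83) in E2A and 1.35 (1.14 to 1.60) in HEB, none of them called. E2-2 lay just short of the limit: with DESeq2 size factors, with plain library totals or from the deposited FPKM values BTG1 passed 2-fold. Both genes that overlap BTG1 on chromosome 12, LINC01619 being the larger overlap, held at most 15 reads in any library.

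BTG3 and TOB1, the other family members in the group, differed little. BTG3 (ENSG00000154640, chromosome 21, 17593653 to 17612947) held 437 reads in E2-2, 482 in E2A, 455 in HEB and 398 in vector, or 28.8, 27.3, 27.5 and 25.5 CPM. Its intervals overlapped in all 4 libraries, and E2-2 over vector was 1.13 (0.984 to 1.30). TOB1 (ENSG00000141232, chromosome 17, 50862223 to 50867978), which also binds the poly(A)-binding protein, held 1020 reads in E2-2, 953 in E2A, 891 in HEB and 801 in vector. Only the E2-2 library stood apart, at 67.3 CPM against 53.9 in E2A, 53.8 in HEB and 51.4 in vector. Its fold over vector was 1.31 (1.19 to 1.44) in E2-2, short of 2-fold, and 1.05 in both E2A (0.955 to 1.16) and HEB (0.952 to 1.15).

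TOB2 and BTG4, relatives outside the group, had other patterns. TOB2, the closest relative of TOB1, held 1145 reads in E2-2, 1516 in E2A, 1554 in HEB and 1329 in vector. Its fold over vector was 0.886 (0.818 to 0.960) in E2-2 and 1.10 (1.02 to 1.19) in HEB. BTG4, an oocyte gene, was at 0 reads throughout, with upper interval limits from 0.209 CPM in E2A to 0.243 CPM in E2-2. Of 16 measured genes for CCR4-NOT and its partners, such as CNOT7 and CNOT8, which bind BTG and TOB proteins directly, 0 were called in any of the 6 pairs of libraries. Their median log2 fold was -0.10 in E2-2, -0.09 in E2A and 0.01 in HEB over vector, against -0.03, -0.01 and 0.01 for all genes with enough reads. The share of all such genes called in 1 direction ran from 0.696% to 8.45% over the 6 pairs.

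**Figure D1:**
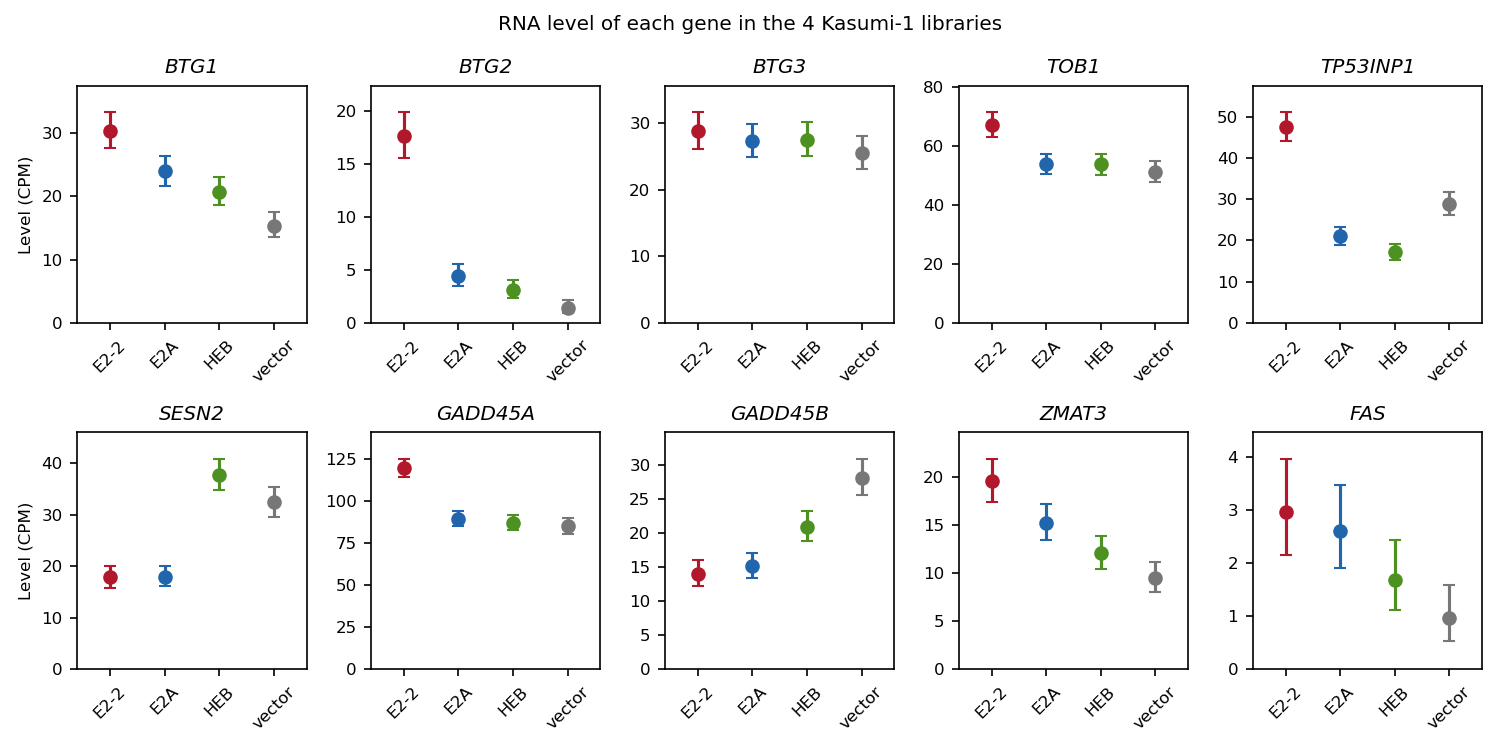
RNA level in CPM of each of the 10 genes, 1 point per library (E2-2, E2A, HEB, vector from left to right) with its 95% exact counting interval; each panel has its own axis from 0. BTG2 stands at 17.6 CPM in E2-2 and at or below 4.41 CPM elsewhere, SESN2 is low in E2-2 and E2A, and TP53INP1 is high in E2-2 and low in HEB.

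Among the p53-linked genes FAS and ZMAT3 shared the order seen for BTG1 and BTG2. FAS held 45 reads in E2-2, 46 in E2A, 28 in HEB and 15 in vector, which is 2.97, 2.60, 1.69 and 0.962 CPM. E2-2 and E2A lay above vector, and neighbouring libraries in this order could not be told apart by their counts. The fold over vector was 3.09 (1.69 to 5.96) in E2-2 and 2.71 (1.48 to 5.22) in E2A, both called higher, and 1.76 (0.908 to 3.54) in HEB. These calls rest on few reads. Both were lost when 100 reads per pair were asked for, and the E2A call also from FPKM with 0.1 added to each value. The deposited FPKM alone, 0.304 in E2A and 0.111 in vector, lie more than 2-fold apart. FAS (ENSG00000026103, chromosome 10, 88990531 to 89015785) shares 860 bases with ACTA2, which held 22 reads in E2-2, 26 in E2A, 20 in HEB and 16 in vector. Whether counting used the strand is not given in the sources used here, so reads of that stretch are uncertain.

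ZMAT3 (ENSG00000172667, chromosome 3, 179017223 to 179072279), which codes for an RNA-binding zinc finger protein, held 297 reads in E2-2, 270 in E2A, 200 in HEB and 149 in vector. Its levels were 19.6 CPM in E2-2, 15.3 in E2A, 12.1 in HEB and 9.55 in vector. Of the 6 genes with vector lowest, then HEB, E2A and E2-2, ZMAT3 alone had an interval that left out 1 at each step. The fold over vector was 2.05 (1.68 to 2.51) in E2-2, called higher, 1.60 (1.30 to 1.97) in E2A and 1.27 (1.02 to 1.57) in HEB. From the deposited FPKM values the E2-2 fold missed 2.

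TP53INP1, a stress-induced gene whose protein takes part in p53 activation and autophagy, lay on opposite sides of vector. It held 721 reads in E2-2, 373 in E2A, 283 in HEB and 451 in vector, or 47.5, 21.1, 17.1 and 28.9 CPM. E2-2 lay above vector, and E2A and HEB lay below it, with no overlap between E2-2 and any other library. Over vector the fold was 1.64 (1.46 to 1.85) in E2-2, 0.730 (0.635 to 0.839) in E2A and 0.591 (0.508 to 0.688) in HEB, none of them called. Set against each other, E2-2 was 2.25-fold (1.98 to 2.56) higher than E2A and 2.78-fold (2.42 to 3.20) higher than HEB, both called. The gene (ENSG00000164938, chromosome 8, 94925972 to 94949411) lies wholly within NDUFAF6, which held 341 reads in E2-2, 424 in E2A, 436 in HEB and 402 in vector. NDUFAF6 was lowest in the library where TP53INP1 was highest, and the strand limit given for FAS holds here too.

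SESN2 (ENSG00000130766, chromosome 1, 28259527 to 28282491) split the libraries in a different way. It held 271 reads in E2-2, 318 in E2A, 625 in HEB and 505 in vector, which is 17.9, 18.0, 37.8 and 32.4 CPM. E2-2 and E2A were level with each other, at 0.993-fold (0.841 to 1.17), and both lay below HEB and vector. The fold over vector was 0.552 (0.474 to 0.641) in E2-2, 0.556 (0.482 to 0.641) in E2A and 1.17 (1.04 to 1.31) in HEB, and none was called. Set against HEB, SESN2 was called lower in both, at 0.473 (0.409 to 0.547) in E2-2 and 0.477 (0.415 to 0.546) in E2A. By fold in E2A over HEB it ranked 89 from the lowest of 13944 genes.

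SESN3 and SESN1 are the other sestrin genes. SESN3 held 543 reads in E2-2, 257 in E2A, 291 in HEB and 208 in vector, and was called higher in E2-2 over vector at 2.69-fold (2.28 to 3.17). SESN1, a p53 target, held 266 reads in E2-2, 245 in E2A, 313 in HEB and 286 in vector, with a fold over vector of 0.957 (0.806 to 1.13) in E2-2 and 1.03 (0.876 to 1.22) in HEB, while E2A was 1.32-fold (1.11 to 1.57) lower than vector and not called. Like SESN2, SESN1 had HEB highest and vector next, but its E2-2 level did not differ from vector beyond the counting interval. Of 18 measured genes that carry sestrin signals or control mTORC1, 0 were called in any pair of libraries. For all genes the share called in 1 direction ran from 0.696% to 8.45% over the pairs.

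GADD45A and GADD45B lay on opposite sides of vector in E2-2. GADD45A (ENSG00000116717, chromosome 1, 67685061 to 67688338), a p53 target induced by DNA damage, held 1810 reads in E2-2, 1576 in E2A, 1440 in HEB and 1325 in vector. At 119 CPM the E2-2 library stood apart from E2A at 89.2, HEB at 87.0 and vector at 84.9 CPM. Its fold over vector was 1.41 (1.31 to 1.51) in E2-2, below 2-fold, 1.05 (0.975 to 1.13) in E2A and 1.02 (0.950 to 1.10) in HEB.

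GADD45B (ENSG00000099860, chromosome 19, 2476122 to 2478259), which is induced by NF-kappaB and by TGF-beta, had folds over vector below 1 in all 3 E protein libraries, and E2-2 alone was called. It held 213 reads in E2-2, 268 in E2A, 346 in HEB and 439 in vector, or 14.0, 15.2, 20.9 and 28.1 CPM. Vector was highest, HEB came next, and E2-2 and E2A did not differ beyond their counting intervals. The fold over vector was 0.499 (0.422 to 0.589) in E2-2, called lower, 0.539 (0.461 to 0.629) in E2A and 0.743 (0.643 to 0.857) in HEB. The E2-2 call lies on the threshold, 2.00-fold lower, and was lost with DESeq2 size factors, with plain library totals and from FPKM. GADD45G held 15 reads in E2-2, 12 in E2A, 9 in HEB and 5 in vector, too few for a call.

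**Figure D2:**
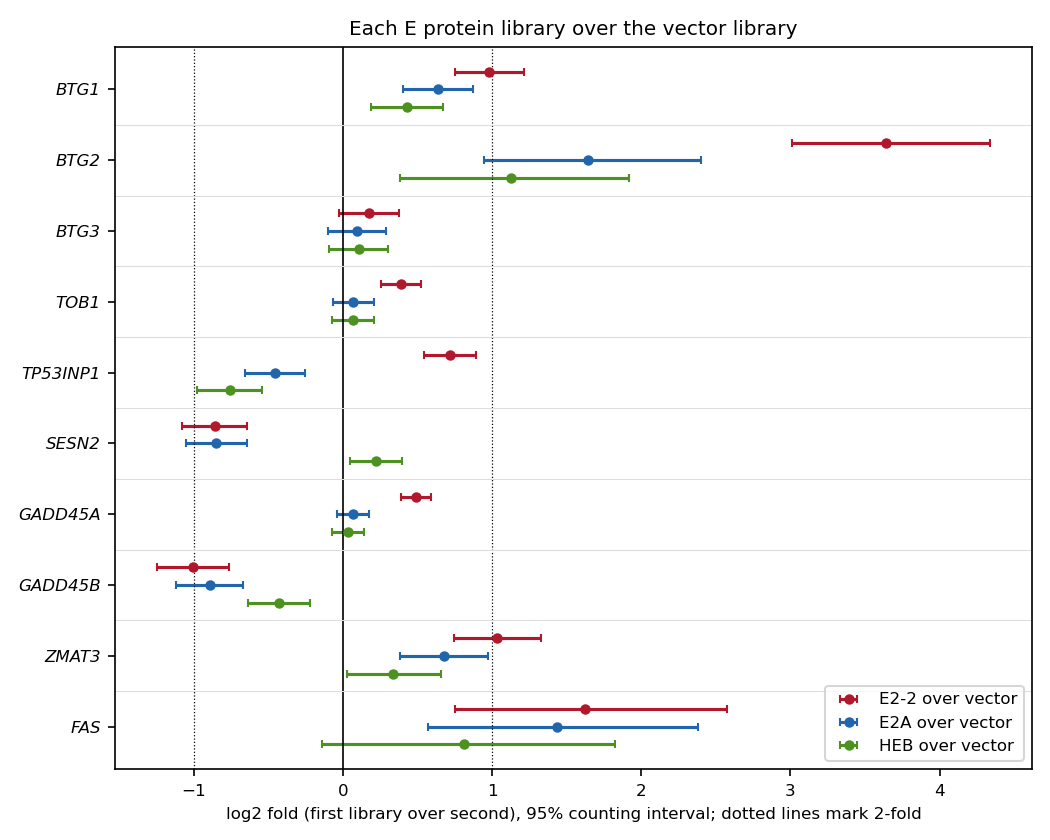
log2 fold of each of the 10 genes in E2-2, E2A and HEB over vector with 95% exact counting intervals; dotted lines mark 2-fold. BTG2 stands furthest out at 3.64 in E2-2, GADD45B lies below 0 in all 3 comparisons, and TP53INP1 and SESN2 have points on both sides of 0.

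Counted together, 3 of the 10 genes were called higher in E2-2 over vector (BTG2, FAS and ZMAT3) and 1 lower (GADD45B), where 8.45% of 13884 genes were called higher and 3.55% lower. Their median log2 fold was 0.60, against -0.03 for all of those genes. In E2A over vector 2 were called higher (BTG2 and FAS) and 0 lower, where 4.89% of 13901 genes were called higher and 1.58% lower, with medians of 0.08 for the 10 genes and -0.01 for all. In HEB over vector 1 was called higher (BTG2) and 0 lower, where 2.55% of 13695 genes were called higher and 1.23% lower, with medians of 0.17 and 0.01. The 3 comparisons share the vector library, so a high or low count there moves all of them at once.

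At any fold, the counting interval lay above 1 for 7 of the 10 genes in E2-2 over vector and below 1 for 2, where it did so for 27.3% and 30.8% of all genes with enough reads. BTG3 was the remaining gene. In E2A over vector it lay above 1 for 4 and below 1 for 3, where all genes gave 22.7% and 24.2%. In HEB over vector it lay above 1 for 4 and below 1 for 2, where all genes gave 21.1% and 16.9%. Over 10630 genes with at least 100 reads in their highest library, the median ratio of highest to lowest library was 1.29.

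**Figure D3:**
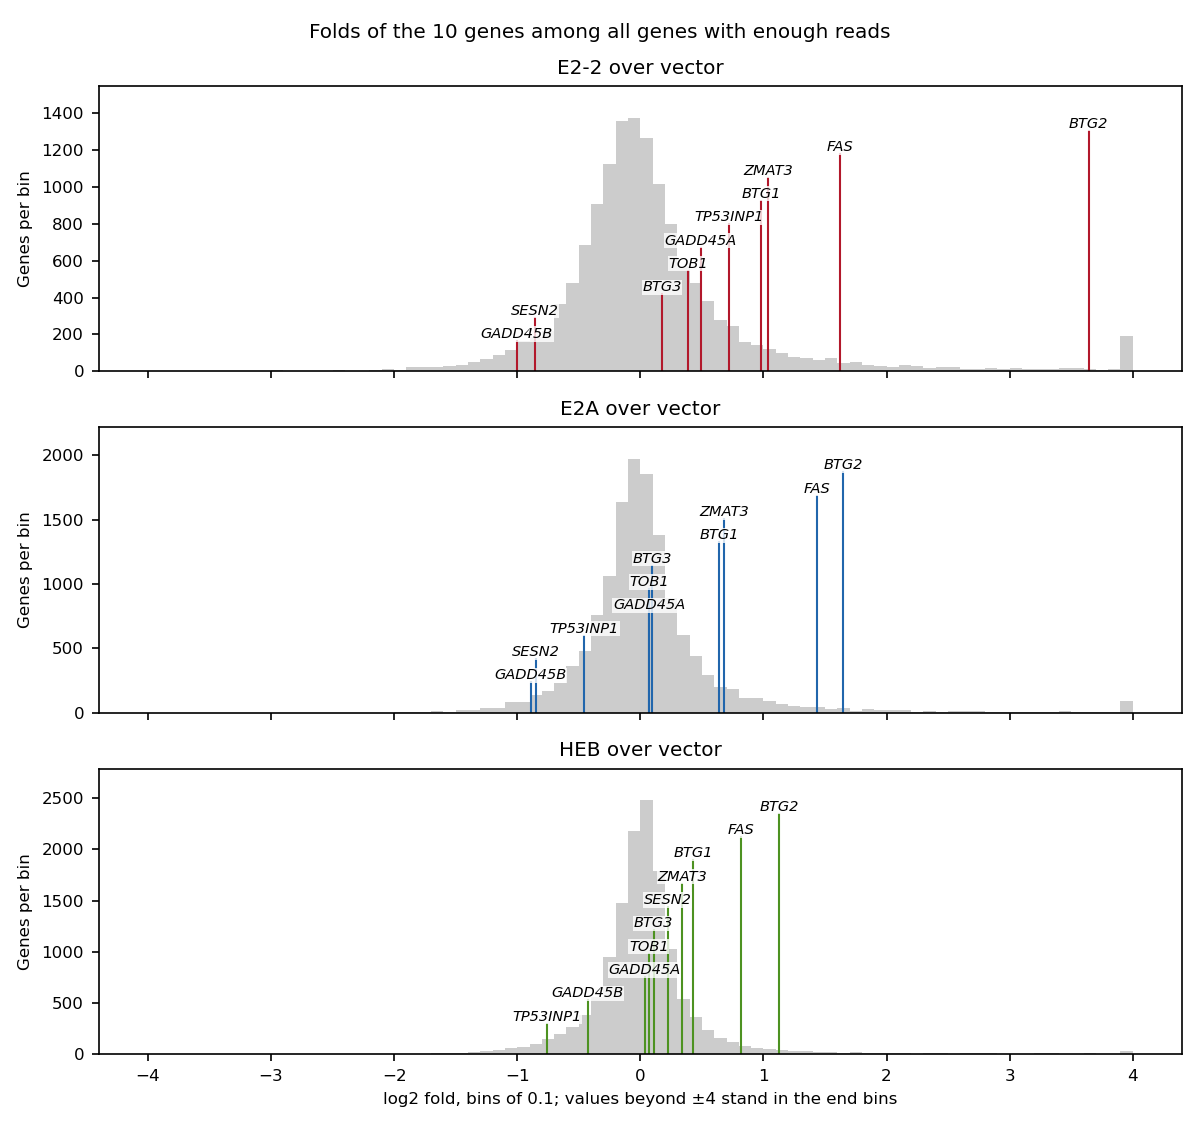
Number of genes per 0.1 of log2 fold over vector for E2-2, E2A and HEB, from all genes with at least 30 reads in the pair (grey bars), with lines for the 10 genes; line height only separates the labels. BTG2 is the outermost of the 10 in each panel, at 3.64 in E2-2, 1.65 in E2A and 1.13 in HEB.

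Direct comparisons of the E proteins do not use the vector library. In E2-2 over E2A 2 of the 10 genes were called higher (BTG2 and TP53INP1) and 0 lower, where 3.63% of 14066 genes were called higher and 1.61% lower. In E2-2 over HEB 2 were called higher (BTG2 and TP53INP1) and 1 lower (SESN2), where 6.09% of 13891 genes were called higher and 1.57% lower. In E2A over HEB 0 were called higher and 1 lower (SESN2), where 2.38% of 13944 genes were called higher and 0.696% lower. The median log2 fold of the 10 genes was 0.33, 0.50 and 0.12 in these pairs, against -0.01, -0.03 and -0.01 for all genes.

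**Figure D4:**
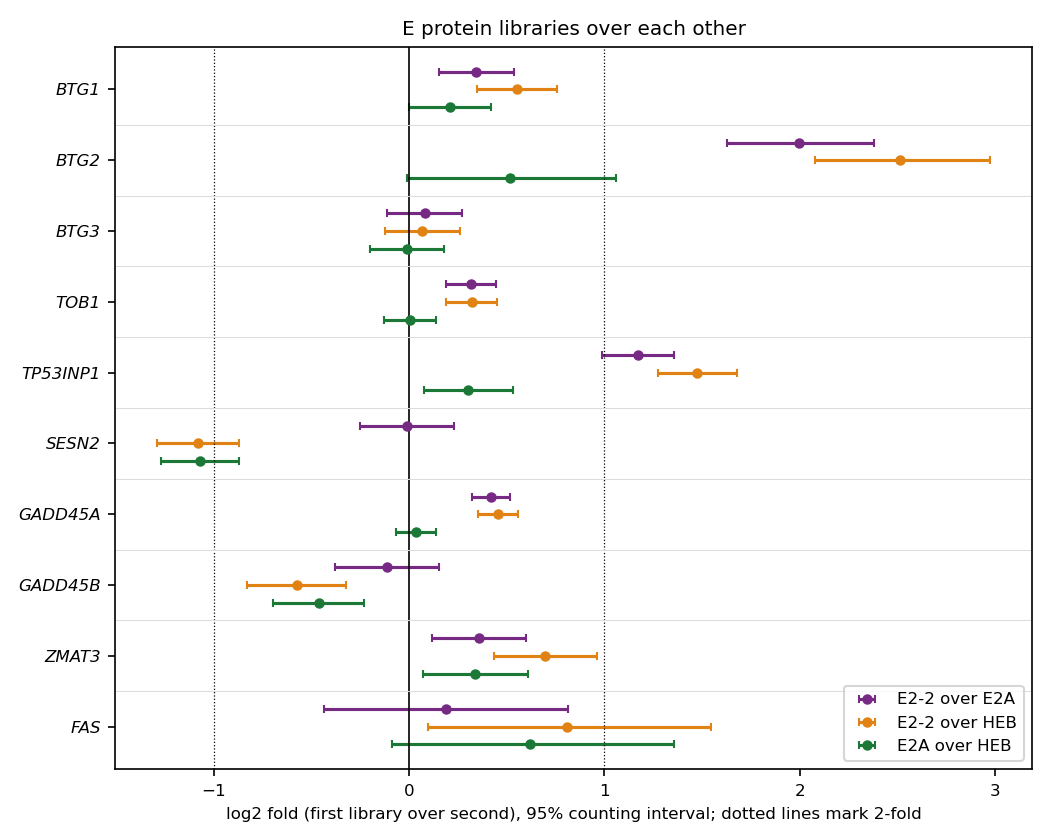
log2 fold of each of the 10 genes in E2-2 over E2A, E2-2 over HEB and E2A over HEB with 95% exact counting intervals; dotted lines mark 2-fold. SESN2 lies near -1 against HEB for both E2-2 (-1.08) and E2A (-1.07) and at -0.01 between these, while TP53INP1 and BTG2 lie above 1 in both comparisons of E2-2.

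The order of the libraries was the same in 6 genes. BTG1, BTG2, TOB1, GADD45A, ZMAT3 and FAS were lowest in vector, then HEB, then E2A, and highest in E2-2, an order held by 12.4% of 15684 genes with at least 30 reads in all. GADD45B had the reverse order, as did 10.9% of those genes. E2-2 was the highest library for 8 of the 10 genes and for 31.3% of all, and vector the lowest for 7 of the 10 and for 29.6% of all. Steps within these orders were often smaller than counting error. HEB over vector had an interval above 1 for BTG1, BTG2 and ZMAT3, but not for TOB1, GADD45A or FAS. E2A over HEB left out 1 only for ZMAT3 among these 6 genes.

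Genes whose pattern lay nearest to BTG2 and TP53INP1, the members with the widest range among those with 100 reads in a library, were looked up by the distance between centred log2 CPM values over the 4 libraries. Out of 10377 genes, those nearest to BTG2 were SLA (distance 0.29), MT1G (0.31), ADA (0.31), NRXN2 (0.38) and RAB3D (0.48). SLA codes for a Src-like adaptor protein and ADA for adenosine deaminase. ADA held 2763 reads in E2-2, 1027 in E2A, 523 in HEB and 285 in vector, and SLA held 766, 225, 184 and 79 reads in the same libraries. Nearest to TP53INP1 were CREBRF (0.28), DUSP1 (0.28), BMF (0.28), ARHGEF3 (0.32) and RNF103 (0.36). DUSP1, a phosphatase that acts on stress kinases, held 310 reads in E2-2, 187 in E2A, 153 in HEB and 196 in vector. BMF, which promotes cell death, held 582 reads in E2-2, 390 in E2A, 256 in HEB and 448 in vector. These distances rest on 4 libraries.

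The rest of the p53 response was compared through 31 further p53 target genes. In E2-2 over vector 4 of 26 measured were called higher and 1 lower, with a median log2 fold of 0.05, where 8.45% of all genes were called higher and 3.55% lower. The folds were 4.06 (3.78 to 4.36) for PMAIP1, a promoter of cell death, 3.64 (3.23 to 4.12) for SUSD6 and 3.33 (2.96 to 3.76) for CDKN1A, the cell cycle inhibitor. TP53TG1 was the other higher gene, at 39 reads in E2-2 against 11 in vector, and the decoy receptor gene TNFRSF10C, at 9 against 22 reads, the lower one. In E2A over vector 2 of 27 were called higher, SUSD6 (2.02-fold, 1.77 to 2.30) and TP53TG1 (2.25-fold, 1.08 to 5.00), and 1 lower, the death receptor gene TNFRSF10B (2.16-fold, 1.82 to 2.56), where 4.89% of all genes were called higher and 1.58% lower. In HEB over vector 1 of 27 was called higher, TP53TG1 with 25 reads against 11, and 0 lower, where 2.55% of all genes were called higher and 1.23% lower. The medians were 0.11 in E2A and 0.10 in HEB. BAX, named after its value was seen, was 0.986-fold (0.867 to 1.12) in E2-2 over vector. In the same pair TNFRSF10B was at 0.504 (0.423 to 0.599), just short of the threshold. Of the 26 genes measured there, 14 had folds above 1.

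MDM2, a p53 target and regulator named after its value was seen, held 775 reads in E2-2, 809 in E2A, 822 in HEB and 587 in vector, with a fold over vector of 1.36 (1.22 to 1.51) in E2-2, 1.22 (1.09 to 1.36) in E2A and 1.32 (1.19 to 1.47) in HEB. Of 10 measured genes that act downstream of FAS 0 were called in any pair, where all-gene shares were 0.696% to 8.45% per direction. CASP8, the initiator caspase among them and named after its value was seen, had a fold over vector of 0.505 (0.465 to 0.548) in E2-2, just short of the threshold. Of 8 measured stress kinase genes linked to GADD45 proteins 1 was called, MAP2K3, at 2.19-fold (1.94 to 2.48) higher in E2-2 than in vector, where 8.45% of all genes were called higher.

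**Figure D5:**
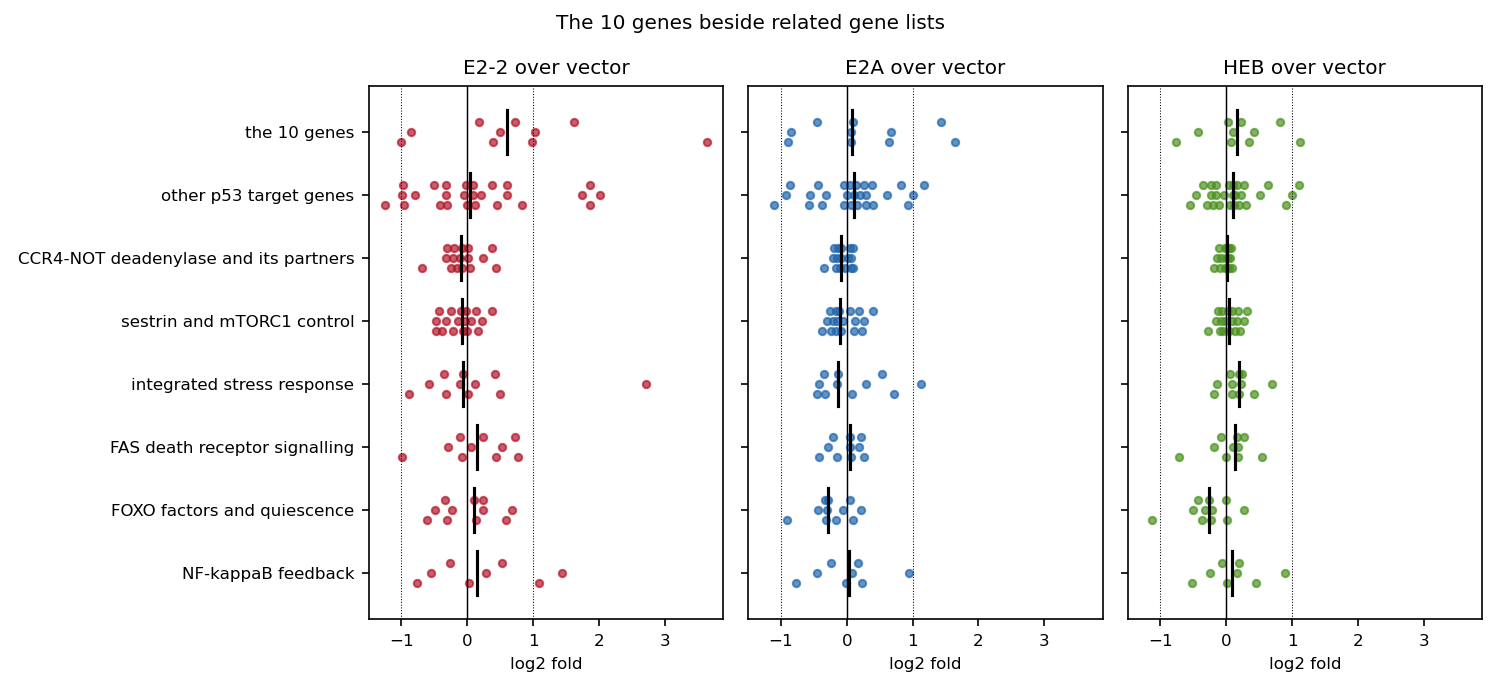
log2 fold over vector of single genes (points) and the median of each list (black bar) for the 10 genes and for 7 related lists in E2-2, E2A and HEB; dotted lines mark 2-fold. The median of the 10 genes is 0.60 in E2-2, 0.08 in E2A and 0.17 in HEB, and that of the other p53 target genes is 0.05, 0.11 and 0.10.

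Values of marker lists that bear on handling stood as follows. Summed over 9 genes of early stress and handling, the level was 430 CPM in E2-2, 619 in E2A, 478 in HEB and 428 in vector. HSPA1A, a heat shock gene, was 2.46-fold (2.23 to 2.72) higher in E2A than in vector and held 537 reads in E2-2 against 534 in vector. In E2A over vector 3 of these genes were called higher and 2 lower, where 4.89% of all genes were called higher and 1.58% lower. In E2-2 over vector 1 was called higher (EGR1) and 0 lower, against 8.45% and 3.55% of all genes. HEB over vector gave 0 calls, against 2.55% of all genes called higher and 1.23% lower. The part of the handling genes in the E2A values of the stress genes above was not tested. Of 12 housekeeping genes 0 were called in any pair, with median log2 folds of -0.07 in E2-2, -0.03 in E2A and 0.04 in HEB over vector. The share of all genes called in 1 direction ran from 0.696% to 8.45% over the pairs.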

How the data were processed

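Per the file headers, the deposited table lists 50868 Ensembl genes, each with the authors' raw read count and FPKM value in every library. HTSeq 0.9.1 and TopHat2 2.0.9 are named in the submitters' processing notes along with Bowtie2 2.2.9 and the builds hg19 and hg38, with no roles stated. Not given in the sources used here are the annotation, strand setting and gene lengths behind FPKM. Lengths implied by the deposited FPKM exceeded the gene's span for GADD45A (3985 against 3278) and GADD45B (5260 against 2138), so levels of different genes are not compared. FPKM, as log2(value + 0.1), served as an alternative unit, and the added 0.1 draws folds of low values toward 1.

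Per the labels, each group has 1 RNA library. TMM factors from edgeR 4.0.16 (R 4.3.3) scaled the counts of all 4 libraries. Folds carry exact conditional binomial (Clopper-Pearson) intervals and levels exact Poisson intervals. Reads are not known to be separate molecules, so these cover counting error only. No p-value is given. Folds were computed and ranked over the whole table. Python 3.11.15, numpy 2.4.6, scipy 1.17.1 and pandas 2.3.3 were used, and DESeq2 1.42.0 for alternative size factors.

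The 10 genes and the lists were chosen with earlier results of these data known. All 10 genes are described whatever their values, and all passed the read minimum in every pair. Relatives are named whatever their values, and up to 3 called genes of each list, those with the interval bound farthest from 1. Where a list had 5 or fewer called genes in a direction, the others named were added after their values were seen. Genes most like a member are the 5 with the smallest Euclidean distance for each of the 2 widest-ranging members. In simulated counts for E2-2 over vector (13895 genes), 96% of genes set to a 3-fold change and 0.299% of those left unchanged were called. At a 1.5-fold change, below the threshold, 6% were called. The simulation held counting error only, so these shares do not cover differences between cultures.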

Additional observations from a re-analysis of the deposited data

Results flagged for a closer look

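TP53INP1 and SESN2 drew attention because the E protein libraries lay on opposite sides of the vector library, each with a counting interval that left out 1. For TP53INP1 the log2 fold over vector was 0.72 in E2-2, -0.45 in E2A and -0.76 in HEB. For SESN2 it was -0.86 in E2-2, -0.85 in E2A and 0.22 in HEB. With 1 library per group these differences were not tested beyond counting error. Groups of 1 library cannot be examined for samples that stand apart.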

How the results depend on the processing

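With a threshold of 1.5-fold, 7 of the 10 genes were called in E2-2 over vector, 6 in E2A over vector, 2 in HEB over vector and 5 in E2-2 over HEB, where 3187, 1866, 1168 and 2327 of all genes were. With a threshold of 3-fold, the counts were 2 in E2-2, 1 in E2A and 0 in HEB over vector, 1 in E2-2 over E2A, 1 in E2-2 over HEB and 0 in E2A over HEB, where 810, 400, 194, 273, 451 and 137 of all genes were called. With at least 100 reads per pair, and likewise from FPKM with 0.1 added, they were 1 in E2A and 0 in HEB over vector. With DESeq2 size factors or plain totals the count in E2-2 over vector stayed at 4, with BTG1 called higher in place of GADD45B called lower. Across all genes, calls ranged over these settings from 810 to 4964 in E2-2 over vector (1666 as reported), 400 to 3819 in E2A over vector (900), 194 to 3440 in HEB over vector (518), 273 to 3780 in E2-2 over E2A (738), 451 to 4228 in E2-2 over HEB (1064) and 137 to 3299 in E2A over HEB (429). The highest counts come from FPKM, which has no read minimum and no interval. All 60 single log2 folds stayed within their counting intervals under DESeq2 size factors, plain totals, protein-coding genes only and FPKM with 0.1 added. Coding genes were taken by RefSeq biotype, since the table lists none. The largest shift was 0.0547 under plain totals and 0.52 under FPKM, where the added 0.1 weighs on low values. The sign turned only near 1-fold, for BTG3 in E2A over HEB and SESN2 in E2-2 over E2A. No paired analysis was possible because each group has 1 library.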

Other observations

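SESN2 is also a known target of ATF4, the factor of the integrated stress response, so that response was looked at across its own genes. Of 11 measured genes 1 was called higher in E2-2 over vector, VLDLR, a lipoprotein receptor gene, at 6.53-fold (4.85 to 8.96), and 0 lower, where 8.45% of all genes were called higher and 3.55% lower. In E2A over vector 1 was called higher, PHGDH, the first enzyme of serine synthesis, at 2.17-fold (2.07 to 2.29), where 4.89% of all genes were. In HEB over vector 0 were called, where 2.55% of all genes were called higher and 1.23% lower. In E2-2 over HEB, where SESN2 was called lower, VLDLR was called higher at 5.61 (4.27 to 7.47) and the ATF4-induced pseudokinase gene TRIB3 lower at 0.406 (0.366 to 0.450). In E2A over HEB, where SESN2 was called lower too, PHGDH was called higher at 2.04 (1.95 to 2.14) and 0 genes lower. In E2-2 over E2A, where SESN2 was level, VLDLR was called higher at 5.32 (4.10 to 6.97) and the asparagine synthetase gene ASNS lower at 0.474 (0.446 to 0.503). Of all genes, 6.09% were called higher and 1.57% lower in E2-2 over HEB. These shares were 2.38% and 0.696% in E2A over HEB, and 3.63% and 1.61% in E2-2 over E2A. The list's median log2 fold was -0.06 in E2-2, -0.13 in E2A and 0.20 in HEB over vector, against -0.03, -0.01 and 0.01 for all genes.

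FOXO factors and their quiescence genes gave 0 calls of 11 in E2-2 and in E2A over vector. Of all genes, 8.45% were called higher and 3.55% lower in E2-2, and 4.89% and 1.58% in E2A. In HEB over vector 1 was called, PIK3IP1, at 2.18-fold (1.75 to 2.74) lower, where 1.23% of all genes were called lower. The list's median log2 fold was 0.10 in E2-2, -0.29 in E2A and -0.26 in HEB, against -0.03, -0.01 and 0.01 for all genes. Of 8 measured NF-kappaB feedback genes 2 were called higher in E2-2 over vector and 0 lower. The 2 were TNFAIP3, which shuts off the pathway, at 2.72-fold (2.46 to 3.01) and TRAF1 at 2.14-fold (1.44 to 3.22). Folds above 1 were seen for 5 of the 8. ICAM1 was at 0.586 (0.464 to 0.739), NFKB2 at 0.680 (0.590 to 0.784) and RELB at 0.836 (0.733 to 0.954), none called. GADD45B, which NF-kappaB induces, was called lower there, a call on the threshold that was lost under other settings. For all genes the share called higher in that pair was 8.45%. Against the same share, 1 of 12 proliferation genes was called higher in E2-2 over vector, MKI67. In E2A and in HEB over vector 0 were, where 4.89% and 2.55% of all genes were called higher. The medians of the 12 were 0.34 in E2-2, 0.22 in E2A and 0.24 in HEB, against -0.03, -0.01 and 0.01 for all genes. Folds above 1 were seen for 10, 9 and 10 of the 12. TP53INP2, the relative of TP53INP1, held 329 reads in E2-2, 268 in E2A, 344 in HEB and 408 in vector, and was called in no pair.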
